A study of Homo sapiens with 11 samples.

Results

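Integrins and laminin chains are the receptors and the ligands with which an epithelial cell holds on to its basement membrane. The genes described here were those whose symbol was ITGA or ITGB followed by at most 3 digits or capitals, or LAMA, LAMB or LAMC followed by a digit, and the probe-to-gene table held 35 such genes on 40 probes, among 14941 gene symbols and 22464 probes in all. They comprised 26 integrin names, of which 24 were integrin subunits proper, and 9 laminin chains. ITGB1, ITGAD, LAMA1 and LAMA3 were not analysed here. Expression had been measured in RT4 cells, an established line derived from a bladder papilloma, on 11 one-color spotted oligonucleotide arrays. Of these, 9 arrays held RNA of cells on Matrigel, 1 array for each of 12 h and days 1, 2, 3, 4, 6, 7, 8 and 9 after transfer off plastic, and 2 arrays held RNA of cells on plastic. Matrigel is a basement membrane extract of a mouse tumor, rich in laminin and type IV collagen, and the study calls it a cancer-remodeled extracellular matrix (crECM). On crECM the cells were layered on a solidified gel in a culture insert. The label of the second plastic array adds that Matrigel came next. All groups were the same untreated line, no label says that arrays came from separate cultures, and p-values therefore measure only the spread between these arrays.

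Integrins are heterodimers of an alpha and a beta subunit that span the plasma membrane. The pairing decides the ligand: some bind laminin, some collagen, some the RGD motif of fibronectin and vitronectin, and a further set is known mainly from leukocytes. Laminins are trimers of an alpha, a beta and a gamma chain. In the urothelium the laminin receptor made of ITGA6 and ITGB4 anchors the basal cells in hemidesmosomes, whereas ITGA3 takes part in adhesion to the same laminins.

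Expression is given as the deposited value, in standard deviations (SD) of the noise above the zero point of the array, and a value over 3 SD counted as expressed. Changes are log2 differences, crECM minus plastic, with values under 3 SD set to 3 SD, so that a fold against a group under 3 SD is a fold against that floor. The deposited zero of the plastic arrays lay below the low peak of their raw intensities, since probes within that peak, such as ITGB4, had deposited values over 3 SD there. Such folds therefore hold for the deposited scale and are no lower bounds. Calls were made with limma at a Benjamini-Hochberg adjusted p under 0.05 over 21480 probes. The raw median intensity was between 224.2 and 481.5 on the crECM arrays, against 162 and 140.4 on the plastic arrays, and 76.42% to 85.41% of the probes on the crECM arrays but 53.73% and 44.46% on the plastic arrays stood over 3 SD of the low peak of raw intensities. Substrate and array handling cannot be told apart. KRT7, KRT18, KRT19 and GATA3, which mark urothelial cells, were over 3 SD on all arrays. UPK1B, a uroplakin of the urothelial surface, was at most 0.012 SD on crECM and at 6.10 and 1.83 SD on plastic. It was over 3 SD of the raw low peak on no array. Of the other uroplakins, UPK1A and UPK2 were over 3 SD on all arrays. UPK3A ranged between 0.0003 and 11.3 SD on crECM and was at 6.44 and 6.92 SD on plastic.

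Of the 38 member probes tested, 11 were higher on crECM, 6 were lower and 21 were not called. Over all probes, 22.8% were called higher and 22.4% lower, so the members' counts lay close to the background of the array. Their median log2 change was 0.16, against 0.06 for all probes tested. The 11 higher probes were ITGAE, ITGB2, ITGAX, ITGB3, ITGAV, ITGA2B, ITGBL1, LAMB4 and 1 of the pair of probes for each of ITGB6, LAMA4 and LAMA5. The 6 lower probes were ITGA1, ITGA2, ITGA3, ITGA7, ITGB4 and 1 of the pair for LAMA2. All 9 crECM arrays lay above both plastic arrays for 11 member probes (22.4% of all probes tested) and below both for 7 (24.4%). In addition to such a separation, 8 probes were called higher at 1.5-fold or more (15.9% of all probes) and 5 lower (14.4%). Without the second plastic array 4 member probes were called higher and 4 lower, and ITGBL1, an integrin-like protein and no subunit, lost its call without either plastic array (adjusted p of 0.203 and 0.113). With values rebuilt without the regression between arrays, which put the median change of all probes at 1.18, 27 were called higher and 0 lower. ITGA10 and ITGA6 did not pass the filter of 3 SD on at least 2 arrays and were not tested.

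The calls are given here by role, where 22.8% of all probes were higher and 22.4% lower. None of the 3 laminin-binding integrin probes tested was higher and all 3 were lower, though without the regression step ITGA3 and ITGA7 were so only relative to the median of all probes and ITGB4 was at the floor on all arrays. Of the 3 collagen-binding integrin probes, 2 were lower and 1 was not called. Without the regression step ITGA2, 1 of the lower 2, was at the floor on all arrays. The other, ITGA1, changed by -0.05 and was lower only relative to the median of all probes (-1.23). RGD-binding integrins had 4 higher and 5 not called of 9 probes, and leukocyte integrins had 3 higher and 4 not called of 7. Of these higher probes, ITGB2 and the ITGB6 RefSeq probe were not called in values rebuilt with regression. ITGAV was not called with quantile normalization, and ITGA2B changed by 0.10 without the second plastic array. Laminin alpha chains had 2 higher and 1 lower of 6 probes, beta chains 1 higher of 4, and neither of the 2 gamma chain probes was called. Whether the roles differed from each other was not tested.

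**Figure D1:**
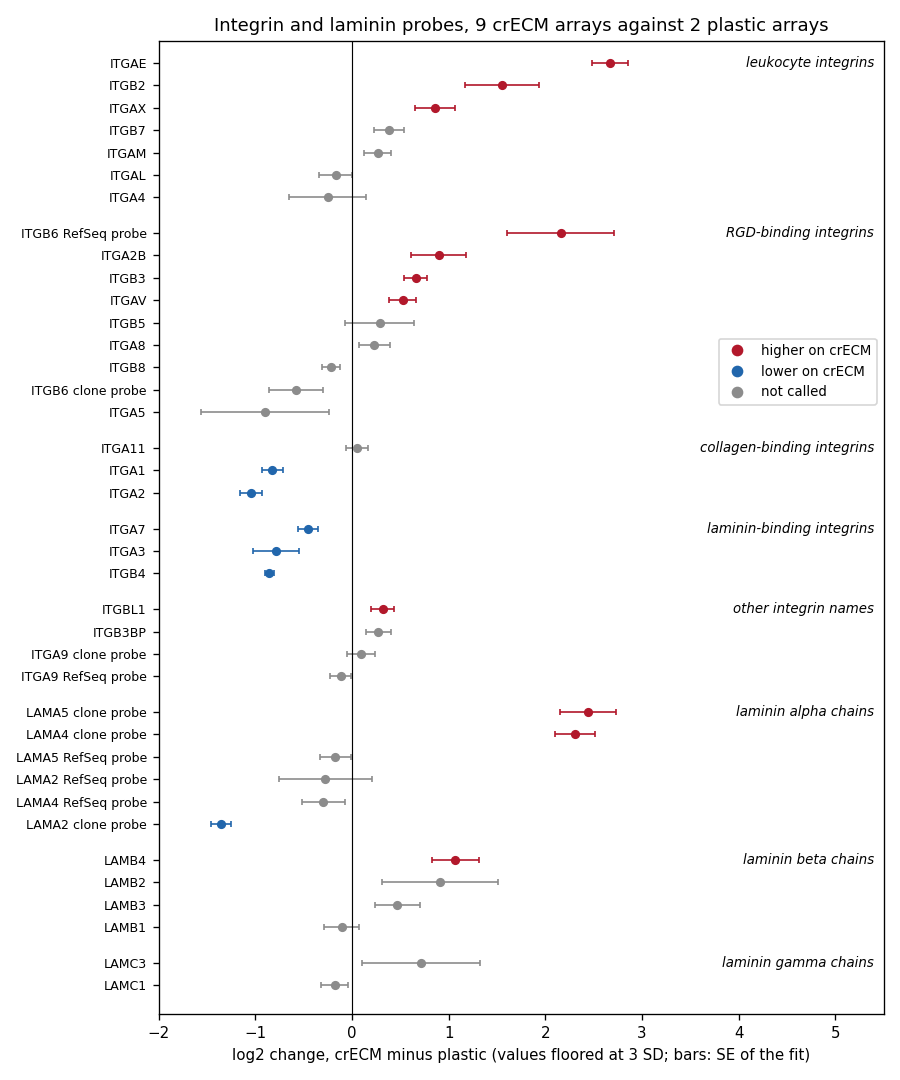
Log2 change, crECM minus plastic, of the 38 tested member probes, grouped by role. Points are fitted changes, bars are the SE of the fit, red marks probes called higher, blue lower and gray not called. The changes range between 2.67 for ITGAE and -1.35 for the LAMA2 clone probe, and the laminin-binding integrins all lie left of 0.

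Of the members, 4 probes met the off-on criteria of the study, a mean log10 value below 0 on plastic and above 1 on crECM: ITGAE, and 1 probe each of ITGB6, LAMA5 and LAMA4. Over all 22464 probes, 3.97% were off-on and 0.41% on-off, and no member was on-off. Without the second plastic array 2 members were off-on, and with values rebuilt with regression 0 were. The share of all probes is not given for these settings. Rebuilt values start from SDs of the raw low peak, where ITGAE was at 5.18 to 13.0 on crECM, against 15.3 to 23.8 SD in the deposited values. The same cut is thus a different test there, and the 0 does not show that the change was lost. The stretches of 250 bases upstream of the start sites of these 4 genes are shown because 1 probe of each met these criteria. They are from RefSeq on GRCh38.p14, written 5′ to 3′ on the strand of the gene, and capitals mark matches to an SP1 motif.
ITGAE (chr17:3801189-3801438, minus strand): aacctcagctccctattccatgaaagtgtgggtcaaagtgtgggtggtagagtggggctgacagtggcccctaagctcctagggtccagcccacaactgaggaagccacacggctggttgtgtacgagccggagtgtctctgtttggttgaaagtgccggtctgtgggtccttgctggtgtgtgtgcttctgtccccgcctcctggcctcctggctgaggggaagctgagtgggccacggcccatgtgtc
ITGB6 (chr2:160200273-160200522, minus strand): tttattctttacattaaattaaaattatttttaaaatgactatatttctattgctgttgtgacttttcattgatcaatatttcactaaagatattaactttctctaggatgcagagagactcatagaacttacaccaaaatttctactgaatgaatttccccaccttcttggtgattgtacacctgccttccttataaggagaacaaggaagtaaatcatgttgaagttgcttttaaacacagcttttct
LAMA5 (chr20:62367313-62367562, minus strand): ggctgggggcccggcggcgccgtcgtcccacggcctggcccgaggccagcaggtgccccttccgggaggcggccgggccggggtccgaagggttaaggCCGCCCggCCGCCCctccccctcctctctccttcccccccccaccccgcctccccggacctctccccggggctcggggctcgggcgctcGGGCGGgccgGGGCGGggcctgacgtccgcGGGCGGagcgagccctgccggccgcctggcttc
LAMA4 (chr6:112254568-112254817, minus strand): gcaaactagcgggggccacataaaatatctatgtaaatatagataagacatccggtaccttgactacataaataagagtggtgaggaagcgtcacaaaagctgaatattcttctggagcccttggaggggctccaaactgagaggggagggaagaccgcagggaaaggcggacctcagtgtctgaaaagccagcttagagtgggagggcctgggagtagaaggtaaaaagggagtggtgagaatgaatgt
The motifs were searched on both strands. AP-1 (TGANTCA) was in 6.6% of all 27305 promoters, NF-kB (GGGNNTTCC) in 5.81% and SP1 (GGGCGG) in 42.3%. Of the 26 members with an entry, 0 held AP-1, 3 held NF-kB and 13 held SP1. The LAMA5 stretch held 5 SP1 matches and the others above held no match to any motif. GC content was 82.8% for LAMA5, 60.0% for ITGAE, 48.4% for LAMA4 and 30.0% for ITGB6, with a median of 58.0% over all promoters. The 4 upstream stretches thus had no searched motif in common.

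ITGAE had the largest change of any member in the deposited values. It encodes the alpha subunit that pairs with ITGB7 into a receptor for E-cadherin, known from T cells that reside in epithelia. Its values on crECM were 21.1 SD at 12 h and 17.7, 19.1, 23.8, 21.7, 19.3, 15.3, 16.0 and 19.4 SD on days 1, 2, 3, 4, 6, 7, 8 and 9, against 0.003065 and 0.004119 SD on plastic. Both plastic values were the lowest of their array, shared with 2322 and 2651 probes. The change was 6.36-fold against the floor (log2 2.67, SE 0.19, limma adjusted p = 5.1e-07). In raw intensity ITGAE lay between 171.3 and 485.5 on crECM and at -6.0 and -34.9 on plastic. All crECM arrays were thus far above both plastic arrays, and when the values were rebuilt here from raw intensity, with a regression between arrays, the log2 change was 1.18 (adjusted p = 0.000484), below the 1.31 of ITGAX. Without the regression it was 1.61, against a median of 1.18 over all probes.

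ITGB7, the partner of ITGAE, was between 31.0 and 50.4 SD on crECM, against 30.9 and 25.7 SD on plastic. Its log2 change of 0.38 (SE 0.15) was not called (adjusted p = 0.063), although no crECM array fell below a plastic one. CDH1, the E-cadherin gene, was lower on crECM, with values between 6.37 and 21.6 SD, against 33.4 and 39.2 SD on plastic (log2 -1.11, adjusted p = 0.033). Across the 9 crECM arrays ITGAE and ITGB7 had a Pearson r of -0.45 (exact permutation p = 0.227) and a Spearman rho of -0.28 (p = 0.463). Without the 2 arrays farthest from the median of ITGAE r was -0.59. With values minus the median of each array, r was -0.49 over the 9 arrays and 0.42 without the 2 farthest, so its sign was not stable.

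Among the other leukocyte integrins, ITGB2 and ITGAX were called higher. ITGB2, the common beta subunit of the leukocyte integrins, was at 4.93 SD at 12 h and at 8.70, 8.05, 13.2, 11.3, 13.2, 4.93, 7.78 and 12.0 SD on days 1 to 9 on crECM, and at the lowest value of both plastic arrays. The change was 2.93-fold against the floor (log2 1.55, SE 0.38, adjusted p = 0.0066). The call was lost without either plastic array (adjusted p of 0.0617 without the first and 0.0682 without the second) and with rebuilt values (log2 0.20, adjusted p = 0.431). ITGAX, an alpha subunit of dendritic cells and macrophages that pairs with ITGB2, was at 27.7 SD at 12 h and at 44.7, 50.7, 31.3, 45.5, 36.6, 41.0, 39.9 and 29.4 SD on later days, against 22.6 and 19.2 SD on plastic. This was 1.81-fold higher (log2 0.86, SE 0.21, adjusted p = 0.0065), with no overlap, and the adjusted p was 0.105 without the second plastic array. ITGAL, ITGAM and ITGA4, alpha subunits of lymphocytes and myeloid cells, were not called. ITGAM was at 54.3 to 89.0 SD on crECM and at 58.8 and 59.7 SD on plastic.

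Markers of leukocytes did not all move with these subunits. Of 8 tested, 2 were higher (CD3E and CD3D) and 2 lower (CD4 and CD8A), where 22.8% of all probes were higher and 22.4% lower. CD8A, like ITGB4, was over 3 SD of the raw low peak on no array. The summed level of the list was 123.4 to 151.1 SD on crECM, against 111.3 and 113.9 SD on plastic. PTPRC, the pan-leukocyte antigen, was at 25.5 to 33.0 SD on crECM and at 32.7 and 34.0 SD on plastic (adjusted p = 0.1), so it was not at 0 in this epithelial line on either substrate. CSF1R was between 0.959 and 11.4 SD on crECM, and at the lowest value of both plastic arrays. What part such markers have in the values of the leukocyte integrins was not tested.

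ITGB6 pairs with ITGAV into an epithelial receptor that binds fibronectin and tenascin and activates latent TGF-beta. The array carried a probe annotated by a RefSeq transcript and another annotated by a sequenced clone. The RefSeq probe was at 6.18 SD at 12 h and at 4.85, 16.3, 17.8, 16.9, 26.4, 10.5, 16.3 and 20.9 SD on later days on crECM, against 2.14 and 0.004119 SD on plastic. It was 4.46-fold higher than the floor (log2 2.16, SE 0.56, adjusted p = 0.0084). The 12 h and day 1 values were the lowest of the time course, and all crECM values exceeded both plastic values.

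The clone probe of ITGB6 did not follow. It was at 14.5 SD at 12 h and at 20.9, 19.6, 26.9, 11.7, 16.3, 24.0, 25.0 and 21.2 SD on later days on crECM, against 29.1 and 28.9 SD on plastic (log2 -0.58, SE 0.28, adjusted p = 0.111). All crECM values of this probe were below both plastic values. The RefSeq probe lost its call without either plastic array (adjusted p of 0.0755 and 0.0831) and with rebuilt values (log2 0.79, adjusted p = 0.158). The probes thus had opposite signs in the deposited values. In values rebuilt without regression both changes were above 0, at 1.21 for the RefSeq probe (adjusted p = 0.0681) and 0.96 for the clone probe (adjusted p = 0.05), which relative to the median of all probes were 0.03 and -0.23.

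ITGAV, the shared alpha subunit of vitronectin receptors, was called higher at 1.44-fold, with 23.6 to 34.5 SD on crECM, against 20.1 and 17.9 SD on plastic. The call was lost without the second plastic array (adjusted p = 0.103) and with quantile normalization (log2 0.29, adjusted p = 0.0808). ITGB3, its partner on many cell types, was at 31.5 SD at 12 h and at 36.7, 39.4, 39.5, 40.3, 41.5, 45.2, 43.6 and 45.2 SD on later days on crECM, and at 24.5 and 26.4 SD on plastic. The change was 1.58-fold (log2 0.66, SE 0.12, adjusted p = 0.001), and no array of one substrate reached the range of the other. ITGA2B, the platelet subunit that also pairs with ITGB3, was called higher as well (log2 0.90, SE 0.28, adjusted p = 0.023), but its plastic arrays, at 30.9 and 10.2 SD, differed from each other by 1.60 on the log2 scale and the first lay within the crECM range of 28.9 to 37.9 SD. Without the second plastic array its log2 change was 0.10 (adjusted p = 0.634), and without the first it was 1.70. Of 4 platelet markers 1 was higher (PPBP) and 2 were lower (GP9 and PF4), where 22.8% of all probes were higher and 22.4% lower. GP9 was over 3 SD of the raw low peak on no array. ITGB5 and ITGB8, further beta partners of ITGAV, and ITGA5 and ITGA8, alpha subunits of fibronectin receptors, were not called. ITGA5 had the widest spread of these, at 1.79 to 19.6 SD on crECM, against 16.2 and 15.8 SD on plastic.

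Over the 9 crECM arrays ITGAV and ITGB6 ran in opposite directions by the brighter clone probe, with a Pearson r of -0.67 (exact permutation p = 0.0489, adjusted 0.0977) and a Spearman rho of -0.80 (p = 0.0138, adjusted 0.0277). Without the 2 arrays farthest from the median of ITGAV r was -0.68. By the RefSeq probe r was 0.54 (exact permutation p = 0.133). The sign of the relation thus changed with the probe. Of the 6 pairs of partner chains planned, correlations were obtained only for this pair and for ITGAE with ITGB7. The adjusted p of the permutation tests covers only the pairs obtained, not the 6 planned. With quantile normalization rho was -0.73 by the clone probe (exact permutation p = 0.0311, adjusted 0.0623).

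Of the laminin chains the largest changes in the deposited values were in alpha chains, and there too the probes of a gene differed. In values rebuilt with regression LAMB3 had the largest change instead (log2 1.01, adjusted p = 0.0208). LAMA5 is the alpha chain of the laminins found in most epithelial basement membranes. Its clone probe was at 8.75 SD at 12 h and at 16.5, 19.0, 20.3, 21.6, 16.4, 14.2, 16.9 and 17.1 SD on later days on crECM, and at the lowest value of both plastic arrays. It was 5.43-fold higher than the floor (log2 2.44, SE 0.29, adjusted p = 4.1e-05). Its RefSeq probe was at 24.1 SD at 12 h and at 29.5, 21.4, 27.4, 21.4, 19.9, 23.9, 20.3 and 20.7 SD later, against 24.5 and 27.3 SD on plastic (log2 -0.17, SE 0.16, adjusted p = 0.398). The clone probe thus separated the substrates fully, while the plastic values of the RefSeq probe lay within its crECM range. Without regression both were called higher, at log2 changes of 1.40 for the clone probe (adjusted p = 0.0198) and 1.44 for the RefSeq probe (adjusted p = 0.000664). In that setting the median of all probes was 1.18, and relative to it the changes were 0.22 and 0.25.

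LAMA4, an alpha chain of vessel and muscle basement membranes, gave the same picture. Its clone probe was at 11.7 SD at 12 h and at 14.7, 15.8, 12.9, 16.6, 12.6, 14.2, 19.2 and 17.8 SD on later days on crECM, against 1.04 and 0.004119 SD on plastic, 4.96-fold higher than the floor (log2 2.31, SE 0.21, adjusted p = 4.3e-06). Its RefSeq probe ranged between 23.6 and 54.1 SD on crECM and was at 36.9 and 40.7 SD on plastic (log2 -0.30, adjusted p = 0.298). With values rebuilt with regression both clone probes remained called, at log2 changes of 0.93 for LAMA5 and 0.77 for LAMA4, and the RefSeq probes were at 0.03 and -0.23. Without regression the LAMA4 probes were both above 0, at 1.30 for the clone probe and 0.93 for the RefSeq probe. Relative to the median of all probes in that setting, 1.18, they were at 0.11 and -0.26.

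LAMA2, the chain of muscle and nerve laminin, had a RefSeq probe that was not called (log2 -0.28, adjusted p = 0.664) and a clone probe that was lower. The clone probe was at most 0.15 SD on every crECM array, against 6.28 and 9.35 SD on plastic, 2.55-fold lower at the floor (log2 -1.35, SE 0.11, adjusted p = 1.2e-06). Its raw intensity was 26.9 to 40.9 on crECM and 31.1 and 43.8 on plastic, within 1 SD of the low peak on every array, and the rebuilt log2 change was 0.00. The 2 probes of ITGA9, an alpha subunit of tenascin receptors, were not called, at log2 changes of -0.12 and 0.09.

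**Figure D2:**
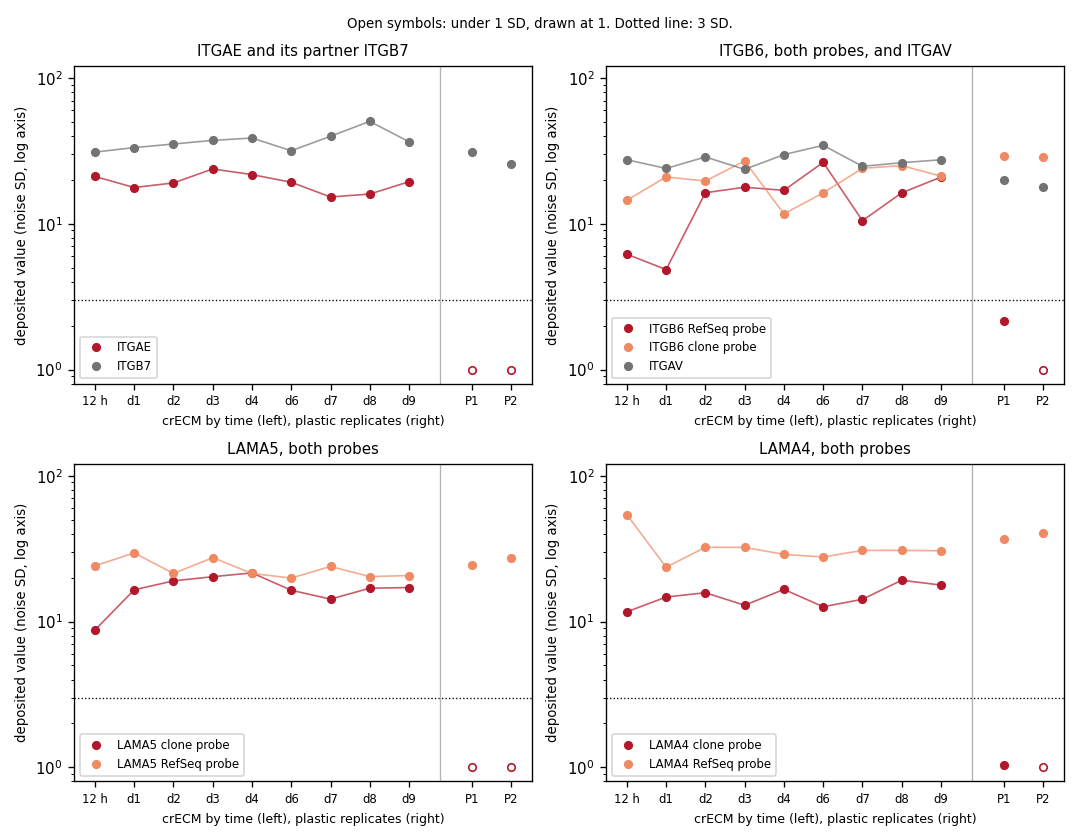
Deposited values in noise SD (log axis) of ITGAE with ITGB7, of both ITGB6 probes with ITGAV, and of both probes of LAMA5 and of LAMA4, on the 9 crECM arrays by time and on the 2 plastic arrays P1 and P2. Filled symbols are measured values, open symbols are values under 1 SD drawn at 1, and the dotted line is 3 SD. ITGAE and 1 probe each of ITGB6, LAMA5 and LAMA4 drop below 3 SD on plastic only, whereas the other probe of these genes, ITGB7 and ITGAV do not.

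LAMB4, a little-studied beta chain, was the only beta chain called. It was at 10.1 SD at 12 h and at 16.3, 16.9, 18.9, 15.9, 16.3, 16.3, 14.0 and 15.8 SD on later days on crECM, against 9.37 and 5.79 SD on plastic. The change was 2.09-fold (log2 1.07, SE 0.24, adjusted p = 0.0042), with no overlap, though the 12 h value lay close to the first plastic value. On plastic LAMB4 was at 0.64 and -0.14 SD of the raw low peak, within that peak as ITGB4 was. Its deposited plastic values, and so the fold, therefore rest on the deposited zero of those arrays. Its adjusted p was 0.0888 without the second plastic array, where the log2 change was 0.72, and 0.17 with quantile normalization. LAMB1, LAMB2 and LAMB3 were not called. LAMB3, a chain of the laminin of epithelial anchoring, was at 15.4 to 29.1 SD on crECM and at 18.2 and 14.3 SD on plastic (log2 0.47, SE 0.24, adjusted p = 0.126). LAMC1, the gamma chain of most laminins, was at 16.7 to 23.1 SD on crECM and at 20.8 and 22.0 SD on plastic, and LAMC3 exceeded 3 SD on 4 of the 9 crECM arrays and on neither plastic array.

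Beside the LAMA2 clone probe, the lower members were receptors for laminin and collagen. ITGA3, the alpha subunit of an epithelial laminin receptor, was at 31.3 SD at 12 h and at 37.7, 25.7, 36.2, 27.1, 48.8, 46.1, 46.1 and 47.5 SD on later days on crECM, against 66.5 and 62.8 SD on plastic. It was 1.72-fold lower (log2 -0.79, SE 0.24, adjusted p = 0.021), with no overlap, and its adjusted p was 0.15 and 0.123 without the first and the second plastic array. ITGA7, a laminin receptor subunit best known from muscle, was 1.37-fold lower, at 29.0 to 38.9 SD on crECM and 44.8 and 47.9 SD on plastic (log2 -0.45, SE 0.11, adjusted p = 0.0047), with an adjusted p of 0.0649 without the second plastic array. ITGA1, a collagen receptor subunit, was at 37.8 SD at 12 h and at 35.4, 39.5, 43.1, 42.5, 33.9, 39.1, 33.6 and 35.1 SD on later days on crECM, against 72.5 and 61.1 SD on plastic. This change of 1.77-fold (log2 -0.82, SE 0.11, adjusted p = 9.7e-05) exceeded the spread of the 9 crECM arrays, whose SD was 0.13 on the log2 scale, and no array overlapped. Without the regression step the log2 changes of ITGA3, ITGA7 and ITGA1 were 0.01, 0.60 and -0.05, and relative to the median of all probes they were -1.17, -0.58 and -1.23.

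The remaining falls were in probes close to the noise. ITGA2, another collagen receptor subunit, was at 0.419 SD at most on crECM, against 7.72 and 4.93 SD on plastic (2.06-fold at the floor, log2 -1.04, SE 0.12, adjusted p = 2.5e-05). ITGB4, the hemidesmosomal beta subunit, was at 0.0003016 SD at most on crECM, against 5.14 and 5.72 SD on plastic (1.81-fold at the floor, log2 -0.85, SE 0.05, adjusted p = 6.5e-08). In all crECM arrays these probes and the LAMA2 clone probe sat at the floor, which left no spread there and made the SE small. The raw intensity of ITGB4 was 17.6 to 44.1 on crECM and 24.3 and 22.2 on plastic, where the low peak of all probes had its mode at 26.8 and 29.0. On that raw scale ITGA2, ITGB4 and the LAMA2 clone probe were within 1 SD of the low peak on all 11 arrays, and with rebuilt values their log2 change was 0.00.

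ITGA6, the partner of ITGB4, was 2.72 SD at most on crECM and at 1.40 and 8.82 SD on plastic, and was over 3 SD of the raw low peak on no array. Together with ITGA2, ITGB4 and the LAMA2 clone probe it made up the 4 member probes that exceeded 3 SD of the raw low peak on no array. ITGA10, a collagen receptor subunit of cartilage, exceeded 3 SD on 1 crECM array, at 7.85 SD on day 2, and on neither plastic array. By the deposited values 32 of the 40 member probes were over 3 SD on all 9 crECM arrays and 32 on both plastic arrays. By the raw low peak these numbers were 29 and 16.

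**Figure D3:**
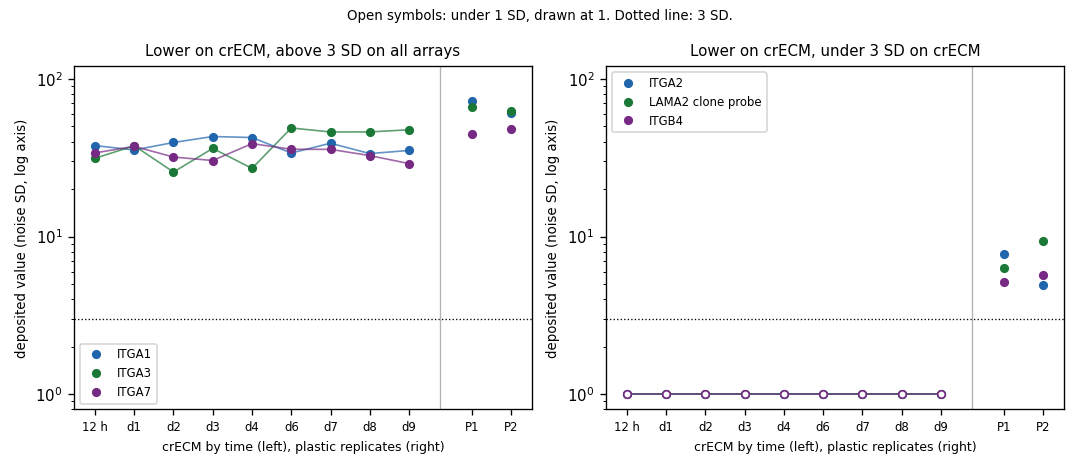
Deposited values in noise SD (log axis) of the lower members on the 9 crECM arrays by time and the 2 plastic arrays P1 and P2, with ITGA1, ITGA3 and ITGA7 on the left and ITGA2, ITGB4 and the LAMA2 clone probe on the right. Open symbols are values under 1 SD drawn at 1, and the dotted line is 3 SD. The first 3 probes stay between 25.7 and 48.8 SD on crECM, while the others are under 1 SD on all crECM arrays.

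**Figure D4:**
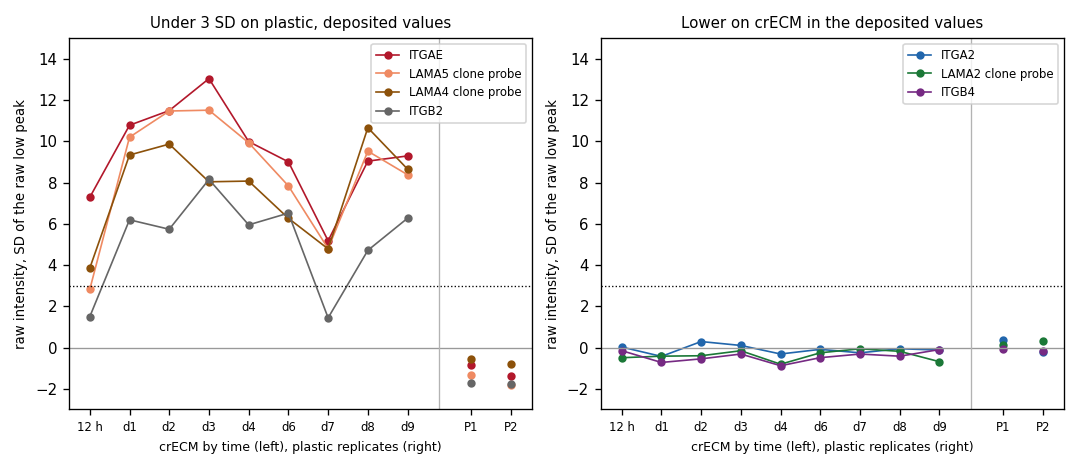
Raw intensity in SDs of the low peak of the same array, before any adjustment between arrays, for 4 probes under 3 SD on plastic (left) and 3 probes lower on crECM (right), on the 9 crECM arrays and the 2 plastic arrays P1 and P2. The solid line is the mode of the low peak and the dotted line 3 SD. ITGAE lies between 5.18 and 13.0 SD on crECM and below 0 on plastic, whereas ITGB4 lies between -0.88 and -0.095 SD on crECM and at -0.063 and -0.15 SD on plastic.

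Within crECM, changes over time were tested in a pair of ways. In a fit against the log2 of the day, no member was called, in a comparison where 0.00466% of all probes were, and 2 members had an unadjusted p under 0.05. ITGB3 gained 0.11 on the log2 scale for each doubling of time (SE 0.01, adjusted p = 0.194), and the ITGB6 RefSeq probe gained 0.43 (SE 0.13, adjusted p = 0.498). The 12 h array set against the 8 later arrays called 2 members higher at 12 h and 1 lower, where 3.54% of all probes were higher and 2.69% lower (6.23% in all), and 7 members had an unadjusted p under 0.05. The LAMA4 RefSeq probe was at 54.1 SD at 12 h and at 23.6 to 32.3 SD later (log2 0.88, SE 0.15, adjusted p = 0.014). ITGAL was at 31.0 SD at 12 h and at 18.9 to 22.9 SD later (log2 0.60, SE 0.14, adjusted p = 0.04), and the LAMA5 clone probe was at 8.75 SD at 12 h and at 14.2 to 21.6 SD later (log2 -1.01, SE 0.22, adjusted p = 0.037). The lower call was lost without day 2, 3, 6 or 9, and 1 of the 2 higher calls without day 1, 2, 4, 8 or 9. With 1 array at 12 h, that array is assumed to vary like the others.

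Genes that work with integrins inside the cell or beside them in the membrane were called about as often as other probes. Of 33 adaptors and membrane partners tested, 8 were higher, 7 lower and 18 not called, where 22.8% of all probes were higher and 22.4% lower, with a median log2 change of -0.18. The smallest adjusted p among the higher ones were those of PTK2B, a focal adhesion kinase relative (log2 2.39), CD151, a tetraspanin that binds laminin receptors (log2 0.90), and FERMT3, the kindlin of blood cells (log2 0.75). Among the lower ones they were those of CD82, a tetraspanin (log2 -1.45), VCL, which links talin to actin (log2 -0.88), and ACTN1, an actin crosslinker (log2 -0.47). CD82, like ITGB4, was over 3 SD of the raw low peak on no array.

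Basement membrane proteins that laminins and integrins bind were counted likewise. Of 22 tested, 7 were higher, 0 lower and 15 not called (22.8% and 22.4% of all probes were higher and lower), with a median log2 change of 0.16. COL4A3, a type IV collagen chain, was at 15.6 to 30.6 SD on crECM, against 3.29 and 0.004119 SD on plastic (log2 2.81, adjusted p = 1.7e-06). VTN, the ligand of ITGAV receptors, was at 20.7 to 37.2 SD on crECM, against 11.6 and 5.49 SD on plastic (log2 1.93, adjusted p = 0.000132). NID2, which joins laminin to type IV collagen, had a log2 change of 0.67 (adjusted p = 0.000142). Of 5 ligands of leukocyte integrins and ITGAE tested, MADCAM1, the ligand of ITGB7 receptors, was higher (log2 0.75, adjusted p = 0.046), CDH1 was lower and 3 were not called. Of 6 fibroblast markers 1 was higher and 2 were lower, and of 5 endothelial markers 2 were higher and 1 was lower. COL1A2, 1 of the 2 lower fibroblast markers, was over 3 SD of the raw low peak on no array.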

How the data were processed

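RNA of RT4 cells on crECM (9 arrays) and on plastic (2 arrays) had been labeled with Cy3. The authors deposited raw intensity values and, in a further table, log10 values. Per the paper's methods, they measured each intensity in SDs of the noise around zero and aligned the log10 arrays with a robust linear fit, a step that stretches or compresses the changes of an array. Regressed on log10 raw values, the deposited log10 values had slopes of 0.9037 to 1.279 on crECM and of 0.6425 and 0.6231 on plastic.

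Here the antilog of the deposited log10 values was floored at 3 SD and put on the log2 scale, since a value near 0 has no stable log. Probes above 3 SD on at least 2 arrays were tested with limma 3.58.1 in R 4.3.3 (lmFit, eBayes with trend) and Benjamini-Hochberg adjustment over 21480 probes. A single gene symbol was given for 17043 probes, several for 172 and none for 5249, by the platform annotation. All 40 member probes were matched by gene identifier to RefSeq names of GRCh38.p14. The brightest probe stood for a gene with 2 probes in correlations, and both are given in the text. Named in full were ITGAE, ITGB6, LAMA5 and the members called at 1.5-fold or more without overlap. At most 3 genes in each direction of another list are named, those with the smallest adjusted p; markers at or near the lowest value, and partners and ligands of a member, are named besides. The members and lists were chosen with earlier results of these data known.

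The raw low peak was the tallest mode of a kernel density (bandwidth 10), with its SD read from the values below it, a detail settled after the values were seen. Alternatives were other floors and filters, values rebuilt from the raw intensities with and without regression, quantile normalization, eBayes without trend, array weights and leaving out each array. Array weights were used in the substrate comparison only. In a simulation of the substrate comparison over 21480 probes, 50 were changed by each fold. Of these, 80% were recovered for 2-fold changes and 88%, 96% and 98% for 3-fold, 4-fold and 8-fold ones, and 12 unchanged probes were called. Whether these rates hold for probes at the floor on either substrate, such as ITGAE and ITGB4, was not tested. Whether they hold for arrays whose slopes differ as given above was not tested either. ITGA6 with ITGB4 gave no correlation because all crECM values were at the floor, and 3 further pairs were not run. Python 3.11.15, numpy 2.4.6, scipy 1.17.1 and pandas 2.3.3 were used. Precision is limited by how few arrays there are.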

Additional observations from a re-analysis of the deposited data

Results flagged for a closer look

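For 5 of 35 member probes examined, 1 crECM array lay farther from the other 8 than Dixon's test allows, where chance at 1 in 20 would give about 1.75. The share of all probes that fail this test was not counted, so the number is not set against the rest of the array. The 12 h array was the one apart in 4 of them. It had 54.1 SD for the LAMA4 RefSeq probe and 31.0 SD for ITGAL, both above all later arrays, and 8.75 SD for the LAMA5 clone probe and 10.1 SD for LAMB4, both below all later arrays. In SDs of the raw low peak ITGAL was at 10.96 at 12 h, within the range of 7.694 to 12.69 of the later arrays. The LAMA4 RefSeq, LAMA5 clone and LAMB4 probes kept their places on that scale. On day 3 ITGA4, the alpha subunit of a lymphocyte receptor for VCAM1 and fibronectin, was at 9.62 SD, below the other crECM arrays, and its raw intensity on that array was 260.0.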

How the results depend on the processing

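Values rebuilt from the raw intensities without regression raised the median change of all probes to 1.18 on the log2 scale and called 27 member probes higher and 0 lower on crECM, in place of 11 and 6. Relative to that median, ITGA1, ITGA3 and ITGA7 stayed below it, the other 3 lower members were at the floor on all arrays, which fixed their place, and 10 of the 11 higher ones above it, with ITGB2 the exception. In that setting 2 lower members, ITGA3 (0.0129) and ITGA7 (0.60), changed sign, and so did 11 of the probes not called. Among those 11 were the ITGB6 clone probe (0.96) and the LAMA5 RefSeq probe (1.44). With regression 4 probes not called changed sign, the LAMA5 RefSeq probe (0.0342) among them. Values rebuilt with regression (median 0.18) called 3 lower. By them 0 members were off-on in place of 4, though the cut was set for the deposited scale and is not the same test there. Quantile normalization gave a median of -0.01, with all 11 higher members above it and all 6 lower ones below it. Of the lower ones, ITGA2, ITGB4 and the LAMA2 clone probe (log2 -1.27, -1.28 and -1.62) lay within 1 SD of the raw low peak on all arrays. The members had been sorted by direction on these same arrays, so such agreement in sign is no separate evidence. The cause of these shifts was not tested.

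Leaving out 1 array gave 4 to 12 higher and 4 to 7 lower member probes; the 4 came without the second plastic array, where 2 members were off-on (2 to 4 over both plastic arrays). The trend called 0 members under all alternatives run for it, which did not include array weights. At 12 h, the 2 higher members became 0 in rebuilt values without regression, 1 in those with it, 1 by the mean of a gene's probes, and 1 to 2 without 1 later array. The 1 lower member became 2 at a floor of 5 SD, 0 in rebuilt values without regression, 2 in those with it, 0 after quantile normalization, 2 without the eBayes trend, and 0 to 1 without 1 later array. The correlation of ITGAV with ITGB6 was -0.67 by the clone probe and 0.54 by the RefSeq probe, an alternative chosen after the values were seen. No paired analysis was possible because replicate numbers in the labels exist for the plastic arrays only.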

Other observations

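LAMB2, a beta chain of vessel and neuromuscular basement membranes, was at 7.04 to 23.0 SD on 8 crECM arrays and at 7.85 and 5.17 SD on plastic, and on day 6 its raw intensity was -1150. COL7A1, the collagen of anchoring fibrils, was over 3 SD of the raw low peak on 7 crECM arrays and on neither plastic array, but was not called (log2 1.10, adjusted p = 0.103). NTN4, a laminin-related netrin, had a median of 34.1 SD on crECM and a highest value of 1557 SD, against 59.8 and 62.8 SD on plastic, and was not called (adjusted p = 0.908).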
